A study of Mus musculus with 12 samples.

Results

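Carboxylesterases (Ces genes) are the abundant serine hydrolases of the liver, and 10 of them were followed here through livers of WT and KO mice on 2 diets. The genes were Ces1c, Ces1d, Ces1e, Ces1f, Ces1g, Ces2a, Ces2c, Ces2e, Ces3a and Ces3b, found as the rows of the deposited gene table whose Ensembl identifier carries one of these symbols. All 10 were present among 35275 genes, and all 10 were among the 12466 genes with a mean of at least 0.5 FPKM (fragments per kilobase of transcript, scaled to the mapped fragments of the library) that were tested. Another 10 Ces genes are listed in the table, of which 3 passed this filter. The libraries were made from total RNA of whole liver of WT mice and of mice that lack Pctp in the whole body (Pctp-/-, KO), fed either chow or a methionine- and choline-depleted (MCD) diet, each of these 4 groups being represented by 3 mice (12 libraries). Pctp encodes phosphatidylcholine transfer protein, a soluble carrier of phosphatidylcholine, and the MCD diet is a standard way to provoke steatosis and liver damage. The study describes its animals as male. The age, the strain and the time on the diet of these mice are not given in the sources used here. The gene was deleted in every tissue, so loss in hepatocytes and loss elsewhere in the animal cannot be told apart.

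Liver carboxylesterases sit mostly in the lumen of the endoplasmic reticulum of hepatocytes, held there by a retention signal, where they cleave ester, thioester and amide bonds. They are known for the activation and clearance of drugs with ester bonds and for the hydrolysis of neutral lipids. Ces1d, also called triacylglycerol hydrolase, and its neighbour Ces1f act on stored triacylglycerol that is passed to very low density lipoprotein (VLDL) assembly. Ces1c lacks a working retention signal and is secreted into plasma in the mouse, Ces1e (egasyn) anchors beta-glucuronidase in the endoplasmic reticulum, and Ces1g is a lipid-handling enzyme of the same subfamily. Ces2a, Ces2c and Ces2e belong to the Ces2 subfamily, which prefers esters with a small acyl group, and Ces2c also hydrolyses acylglycerols. Ces3a and Ces3b form a closely related pair of liver enzymes.

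The 10 genes lie in 2 tandem arrays on chromosome 8 (GRCm38, GENCODE M21). The Ces1 genes are on the minus strand, with Ces1c at chr8:93099015-93131283, Ces1d at chr8:93166068-93197838, Ces1e at chr8:93201218-93229619, Ces1f at chr8:93256236-93279747 and Ces1g at chr8:93302369-93337308. The others are on the plus strand, with Ces2a at chr8:104734003-104741634, Ces2c at chr8:104847068-104854483, Ces2e at chr8:104926260-104934672, Ces3a at chr8:105048601-105058413 and Ces3b at chr8:105083753-105093929. Ces1d overlaps the annotated gene Gm45909 on the same strand, and Ces3a overlaps Gm45724 on the opposite strand, so reads in those overlaps cannot be assigned without knowing how they were counted. Transcripts of different members were between 74.5% and 79.2% identical within Ces1, between 81.4% and 81.9% within Ces2, and 95.4% identical between Ces3a and Ces3b. How far a short read can tell the genes apart was read from the share of 50-base windows of each transcript that also occur in another gene. That share was at most 3.36% for Ces1d, Ces1e, Ces1f, Ces1g and Ces2e. It was 17.0% for Ces1c, mostly with Ces1b, 22.2% for Ces2a, mostly with Gm7208, and 42.2% for Ces2c, mostly with Ces2d-ps. Ces3a shared 30.9% of its windows with Ces3b, and Ces3b shared 26.1% with Ces3a. Values of these 5 genes are therefore uncertain to the extent that the counting split shared reads.

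Promoters of 7 of the 10 members were found in RefSeq (GRCm38.p6), and Ces1d, Ces1f and Ces3a had no entry. The 250 bases before the start site are given for 4 members that differed in their response to the MCD diet, Ces1c and Ces1e from the first array and Ces2a and Ces3b from the second. They are written from 5′ to 3′ on the strand of the gene. Capitals mark TTATGTAA, a D-box sequence bound by bZIP factors of the PAR family, or CTTTGCCC, a run of letters common to several Ces2 promoters.
Ces1c (chr8:93131284-93131533, minus strand): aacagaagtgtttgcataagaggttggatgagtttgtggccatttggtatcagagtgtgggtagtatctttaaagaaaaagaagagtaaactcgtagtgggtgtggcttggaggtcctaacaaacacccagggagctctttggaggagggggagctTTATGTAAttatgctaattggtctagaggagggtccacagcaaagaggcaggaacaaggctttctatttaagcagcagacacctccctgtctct
Ces1e (chr8:93229620-93229869, minus strand): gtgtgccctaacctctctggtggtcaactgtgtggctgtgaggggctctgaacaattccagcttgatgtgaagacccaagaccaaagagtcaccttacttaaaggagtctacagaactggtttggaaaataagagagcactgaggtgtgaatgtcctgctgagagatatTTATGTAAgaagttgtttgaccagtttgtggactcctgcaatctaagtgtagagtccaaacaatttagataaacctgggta
Ces2a (chr8:104733753-104734002, plus strand): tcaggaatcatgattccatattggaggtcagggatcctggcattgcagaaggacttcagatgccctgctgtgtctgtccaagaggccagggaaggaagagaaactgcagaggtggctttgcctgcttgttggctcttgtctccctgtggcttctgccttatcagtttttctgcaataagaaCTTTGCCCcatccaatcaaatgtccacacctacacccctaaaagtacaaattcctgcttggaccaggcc
Ces3b (chr8:105083505-105083754, plus strand): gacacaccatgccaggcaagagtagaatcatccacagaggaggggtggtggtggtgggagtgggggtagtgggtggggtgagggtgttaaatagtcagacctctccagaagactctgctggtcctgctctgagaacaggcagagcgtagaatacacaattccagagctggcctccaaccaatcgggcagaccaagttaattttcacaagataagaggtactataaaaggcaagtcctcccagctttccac

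The D-box lay from -94 to -87 in Ces1c and from -81 to -74 in Ces1e, counted from the start site, with -1 the base before it. It was also present in Ces1g, from -232 to -225, and in Ces1a and Ces1b, but not in the window of Ces1h. Over 27025 genes with a promoter of this length, 0.977% held TTATGTAA. CTTTGCCC was found from -69 to -62 in Ces2a and from -79 to -72 in Ces2e, and in Ces2f and Ces2g, while the window of Ces2c lacked it. It was present in 1.65% of all promoters. The window of Ces3b held neither, but held a TATA box (TATAAA) from -30 to -25 and GTTAAT, part of the sequence that HNF1 factors recognise, from -56 to -51, which occur in 14.3% and 7.49% of promoters. AGGTCA, the core of many nuclear receptor sites, was found in Ces2a, with 15.8% of all promoters holding it, and CAAAGTCCA, a site for HNF4A, in none of the 7, against 0.451% of all promoters. Both strands were searched, the motifs were chosen after these sequences had been seen, and tandem copies share ancestry, so the matches are descriptions and not sites of binding.

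Each library had between 30486576 and 55179468 uniquely mapped reads. The libraries of the 2 diets differed in technical measures as well as in diet. Uniquely mapped reads were 77.6% to 79.4% of the total on chow and 85.7% to 87.6% on MCD, reads mapped to several places 4.07% to 4.84% against 6.5% to 7.4%, and the error rate was 0.03% in all chow libraries and 0.01% in all MCD libraries. In these measures no library of either diet fell in the other's range, so the diet and this difference in sequencing cannot be told apart in any comparison of chow with MCD below. Pctp had 2.25, 1.21 and 2.65 FPKM in the WT chow livers and 0.566, 0.364 and 0.330 in the KO chow livers. On MCD it had 7.90, 5.10 and 3.61 FPKM in WT and 0.156, 0.329 and 0.293 in KO livers. The KO libraries were thus below all WT libraries on both diets, with an adjusted p of 0.150 on chow and 6.2e-04 on MCD in limma.

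On chow, the livers were dominated by 2 carboxylesterase transcripts. Ces3a was the highest in both genotypes, at 1234 ± 144 FPKM in WT and 1157 ± 64.8 in KO livers (SD, n = 3 mice here and for every mean below). Ces1c followed at 827 ± 16.3 and 784 ± 66.2 FPKM, and the ranges of the 2 genes did not overlap. FPKM is per length, so levels of different genes can be set side by side, within the limits of the shared sequence given above. Ces2a, Ces3b, Ces1f, Ces1d and Ces1e formed a middle band with means between 191 and 310 FPKM, in which each gene overlapped the next in order. Below it, and apart from it and from each other, came Ces1g at 100.1 ± 7.65 FPKM in WT, Ces2e at 54.3 ± 3.74 and Ces2c at 8.62 ± 0.592. The order was the same in KO chow livers except within the middle band.

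**Figure D1:**
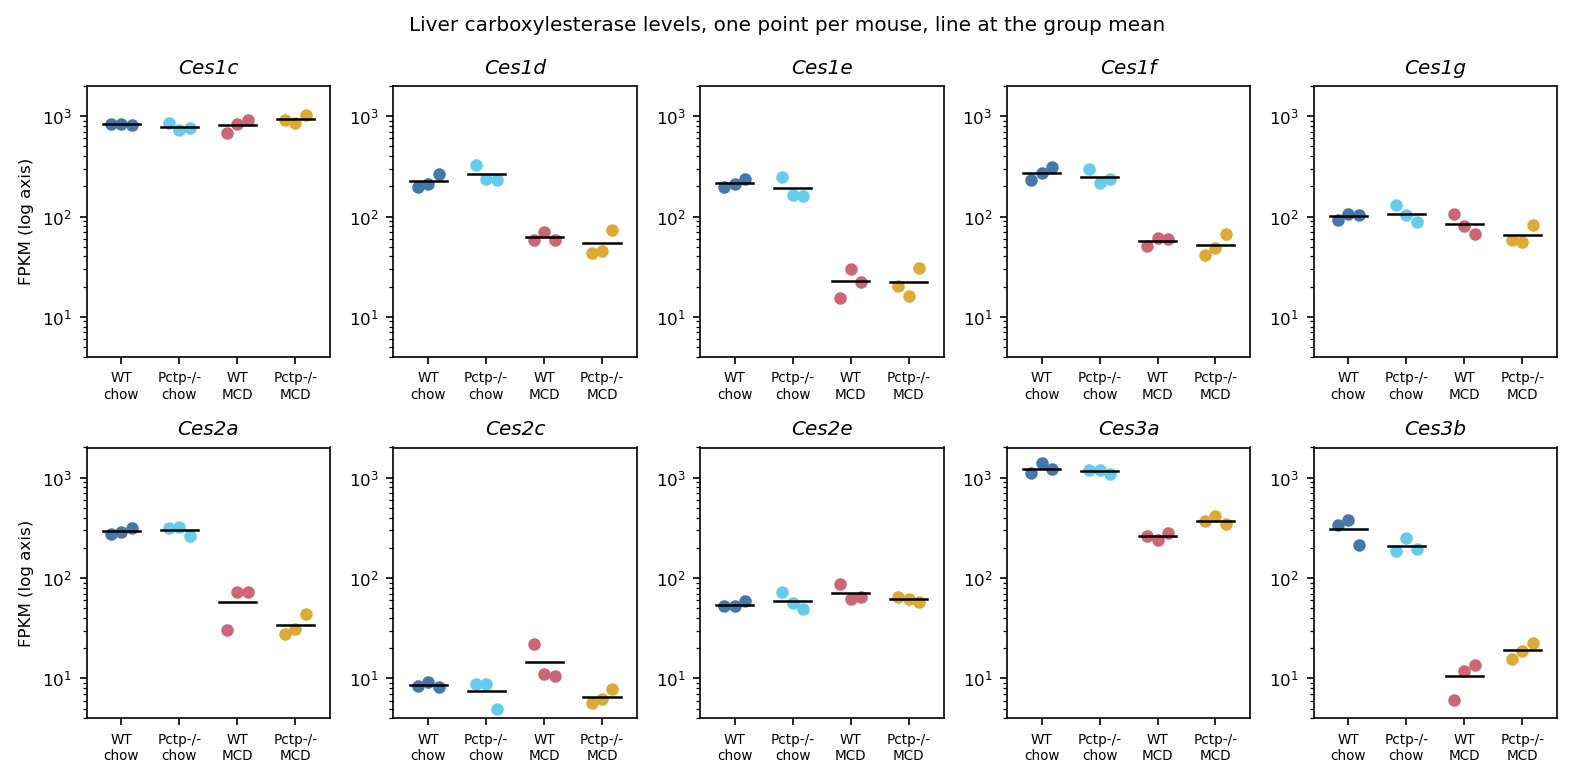
FPKM (log axis) of the 10 carboxylesterases in each of the 12 livers, with a point per mouse in order of replicate and a line at the group mean. Ces1d, Ces1e, Ces1f, Ces2a, Ces3a and Ces3b stood lower on MCD than on chow in both genotypes, while Ces1c stayed between 684 and 1017 FPKM.

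Of the 10 carboxylesterases, 6 were lower on MCD than on chow in both genotypes. In WT livers 7 members passed the test, 6 lower and 1 higher, while 57.0% of all tested genes passed it, 22.5% lower and 34.5% higher. In KO livers 7 passed, all lower, against 50.3% of all genes, of which 24.4% were lower and 26.0% higher. The split over all genes depends on the scaling, with 4300 higher and 2810 lower in WT here and 3706 and 3478 with quantile normalization, whereas the 6 members that fell did so under each scaling. A called fall of at least 1 on the log2 scale, which these 6 members had in either genotype, was found in 6.33% of genes in WT and in 6.08% in KO livers. The median change of the 10 members was -2.03 in WT and -1.94 in KO, beside 0.11 and 0.038 for all tested genes. Changes are differences of log2(FPKM + 1), which understate the change of low genes, and adjusted p-values are from limma with Benjamini-Hochberg adjustment over 12466 genes. In whole liver, fewer hepatocytes and less RNA of these genes per hepatocyte cannot be told apart. Called or not, 8 members in WT and 7 in KO had MCD livers that did not overlap the chow livers, beside 63.7% and 59.7% of all genes. In WT 2 of these members were higher and 6 lower, against 37.7% and 26.0% of all genes, and in KO none was higher and 7 were lower, against 32.3% and 27.5%.

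Ces3b changed by the largest factor. It had 337, 380 and 213 FPKM in WT chow livers and 6.14, 11.9 and 13.7 in WT MCD livers. In KO mice it had 187, 249 and 195 FPKM on chow and 15.6, 19.0 and 22.7 on MCD. All 6 MCD livers were below all 6 chow livers, and the mean was 29.3-fold lower in WT and 11.02-fold lower in KO. The log2 changes were -4.77 (SE 0.27, adjusted p = 1.0e-07, limma) and -3.40 (SE 0.27, adjusted p = 1.5e-06, limma). Its sister gene Ces3a had 1102, 1388 and 1211 FPKM in WT chow livers and 264, 240 and 280 in WT MCD livers. KO livers had 1201, 1188 and 1083 FPKM of Ces3a on chow and 368, 411 and 343 on MCD. Again the diets were apart in every liver, with a mean 4.72-fold lower in WT and 3.09-fold lower in KO. The log2 change of Ces3a was -2.23 (SE 0.11, adjusted p = 4.4e-08, limma) in WT and -1.63 (SE 0.11, adjusted p = 4.5e-07, limma) in KO. Ces3a and Ces3b share sequence, as given above, and how their shared reads were split was not tested.

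Ces1d and Ces1f, described above as acting on stored triacylglycerol, fell together. Ces1d had 198, 213 and 265 FPKM in WT chow livers and 57.8, 69.7 and 58.4 in WT MCD livers. In KO livers Ces1d had 330, 234 and 231 FPKM on chow and 43.7, 45.4 and 73.8 on MCD. Its log2 changes were -1.84 (SE 0.20, adjusted p = 1.3e-05, limma) in WT and -2.29 (SE 0.20, adjusted p = 3.4e-06, limma) in KO. Ces1f had 229, 270 and 311 FPKM in WT chow livers, 51.2, 60.4 and 59.7 in WT MCD livers, 295, 214 and 237 in KO chow livers and 41.3, 48.8 and 66.3 in KO MCD livers. The means of Ces1d were 3.64-fold lower in WT and 4.88-fold lower in KO, and those of Ces1f 4.73-fold and 4.77-fold lower. Its log2 changes were -2.21 and -2.25 (SE 0.17 for both, adjusted p = 1.2e-06 and 1.3e-06, limma). Ces1e, which lies between them, started at a like level and had the larger change, a difference between genes that was not tested. It had 197, 209 and 237 FPKM in WT chow livers, 15.5, 30.1 and 22.4 in WT MCD livers, 248, 164 and 161 in KO chow livers and 20.2, 16.0 and 30.4 in KO MCD livers. Means of Ces1e were 9.44-fold lower in WT (log2 change -3.23, SE 0.25, adjusted p = 1.2e-06, limma) and 8.61-fold lower in KO (-3.07, SE 0.25, adjusted p = 2.2e-06, limma). For all 3 neighbours the diets did not overlap. Gusb, which encodes the beta-glucuronidase that egasyn holds, had between 9.54 and 12.6 FPKM on chow and between 10.4 and 21.01 on MCD. In WT every MCD liver was above every chow liver, the value of 21.01 being that of the first WT MCD library. This WT change of Gusb, 0.39, was not called (adjusted p = 0.0827, limma). In KO the diets overlapped, with a change of 0.024 (adjusted p = 0.924, limma).

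Ces1c and Ces1g lie on either side of these 3 genes. Ces1c, the secreted plasma esterase, had 832, 840 and 809 FPKM in WT chow livers and 684, 833 and 926 in WT MCD livers. In KO livers it had 859, 735 and 758 FPKM on chow and 916, 849 and 1017 on MCD. The ranges overlapped in both genotypes, and the log2 changes were -0.033 (95% confidence interval -0.29 to 0.22, adjusted p = 0.823, limma) and 0.24 (-0.016 to 0.50, adjusted p = 0.108, limma). With quantile normalization Ces1c was higher on MCD in both genotypes (0.27 with adjusted p = 0.0361 in WT and 0.53 with adjusted p = 9.7e-04 in KO, limma), so the direction for this gene depends on the scaling. Ces1g had 91.5, 106 and 103 FPKM in WT chow livers and 106, 81.1 and 66.8 in WT MCD livers, which overlapped. In KO livers it had 130, 103 and 88.6 FPKM on chow and 58.9, 56.3 and 82.3 on MCD, apart from each other. Its log2 change was -0.26 (95% confidence interval -0.67 to 0.15, adjusted p = 0.256, limma) in WT and -0.70 (SE 0.19, adjusted p = 0.00873, limma) in KO. The difference between these 2 changes was -0.44 (95% confidence interval -1.02 to 0.15) and did not pass the test (adjusted p = 0.470, limma).

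In the Ces2 subfamily, Ces2a fell and its relatives did not. Ces2a had 275, 285 and 318 FPKM in WT chow livers and 30.7, 72.0 and 72.0 in WT MCD livers. KO livers had 314, 319 and 262 FPKM on chow and 27.7, 30.8 and 44.0 on MCD. The mean was 5.03-fold lower in WT (log2 change -2.41, SE 0.27, adjusted p = 1.7e-05, limma) and 8.74-fold lower in KO (-3.11, SE 0.27, adjusted p = 3.3e-06, limma), with no overlap of the diets. Ces2c, the acylglycerol hydrolase, had 8.39, 9.29 and 8.18 FPKM in WT chow livers and 21.8, 11.2 and 10.6 in WT MCD livers. In KO livers it had 8.88, 8.75 and 4.91 FPKM on chow and 5.67, 6.18 and 7.90 on MCD. The WT diets did not overlap, but the change of 0.62 missed the threshold (95% confidence interval 0.072 to 1.17, adjusted p = 0.0520, limma), and it was -0.14 (-0.69 to 0.41, adjusted p = 0.670, limma) in KO. Without the first WT MCD library the WT change was 0.31 (adjusted p = 0.234, limma). Ces2e had 52.2, 52.1 and 58.6 FPKM in WT chow livers, 86.8, 62.0 and 65.2 in WT MCD livers, 71.9, 56.8 and 49.2 in KO chow livers and 64.0, 62.2 and 58.2 in KO MCD livers. It was the 1 member called higher, by 0.37 in WT (SE 0.15, adjusted p = 0.0439, limma), and this call is fragile, with a value of 0.23 (adjusted p = 0.188, limma) once the first WT MCD library is left out. In KO its change was 0.067 (95% confidence interval -0.25 to 0.38, adjusted p = 0.726, limma).

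**Figure D2:**
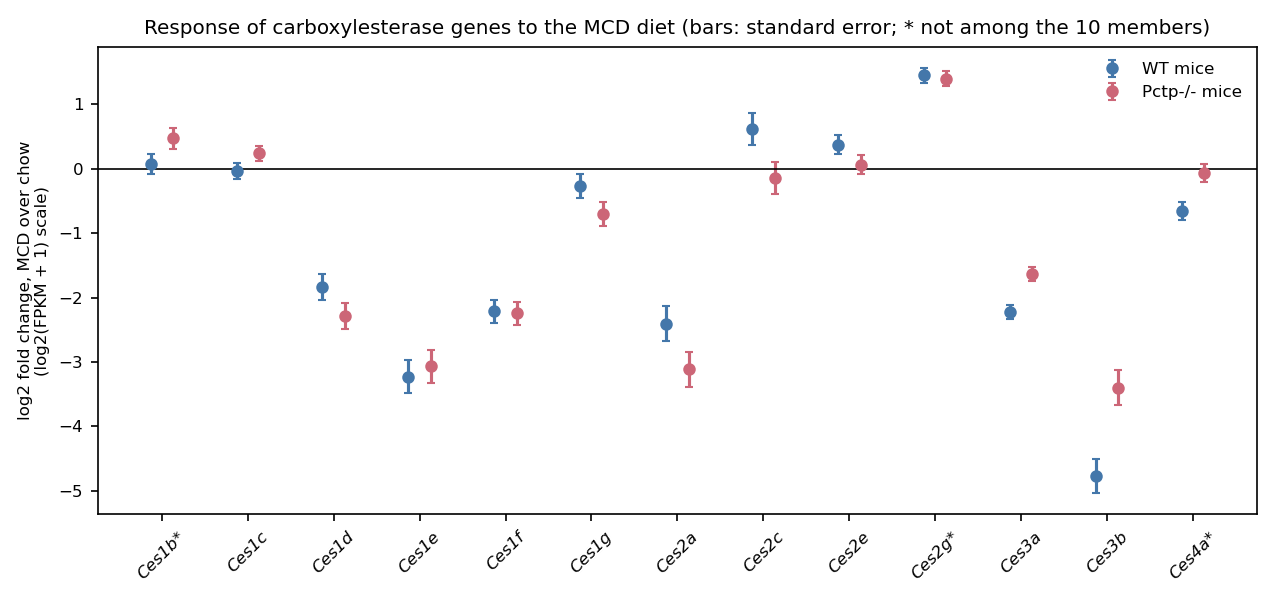
log2 fold change on the log2(FPKM + 1) scale, MCD over chow, of 13 carboxylesterase genes, for WT mice and for Pctp-/- mice, in order of subfamily, with bars for the standard error and an asterisk for genes outside the 10 members. Ces1d, Ces1e, Ces1f, Ces2a, Ces3a and Ces3b are at -1.63 or lower in both genotypes, and Ces2g is at 1.45 and 1.40.

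The other Ces genes of the same arrays were mostly silent. Of 10 listed, Ces1a, Ces1h, Ces2b, Ces2d-ps, Ces2f, Ces2h and Ces5a did not reach the filter. Ces1b, next to Ces1c and like it without a fall, had 135 ± 24.6 FPKM in WT chow livers and 142 ± 20.4 in WT MCD livers, a change of 0.078 (adjusted p = 0.696, limma). In KO livers Ces1b rose from 121 ± 14.8 to 170 ± 25.7 FPKM, by 0.48 (SE 0.16, adjusted p = 0.0264, limma). Ces2g, which lies beyond Ces2e, rose from 15.9 ± 0.913 to 45.2 ± 2.26 FPKM in WT and from 15.3 ± 2.26 to 42.1 ± 4.43 in KO livers. These are changes of 1.45 and 1.40 (SE 0.11 for both, adjusted p = 9.7e-07 and 1.6e-06, limma), opposite to that of Ces2a. Ces4a was low throughout and fell in WT from 1.11 ± 0.208 to 0.342 ± 0.0598 FPKM (-0.65, SE 0.14, adjusted p = 0.00201, limma). In KO livers Ces4a had 0.534 ± 0.0720 FPKM on chow and 0.487 ± 0.269 on MCD (-0.061, adjusted p = 0.745, limma).

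Summed over the 10 members, carboxylesterase FPKM was 3536 ± 215 in WT chow, 3329 ± 293 in KO chow, 1457 ± 126 in WT MCD and 1617 ± 112 in KO MCD livers. No MCD liver exceeded 1746 and no chow liver was below 3069. As a share of all FPKM of the library this was 0.722% ± 0.0224 in WT chow and 0.278% ± 0.0181 in WT MCD livers, and 0.673% ± 0.0698 and 0.313% ± 0.0214 in KO livers. The 6 genes that fell in both genotypes, grouped here because they fell, summed to 2546 ± 204 FPKM in WT chow and 472 ± 41.6 in WT MCD livers, and to 2371 ± 204 and 556 ± 34.2 in KO livers. The other 4 summed to 990.0 ± 15.4 and 985 ± 85.05 in WT and to 958 ± 97.3 and 1061 ± 97.3 in KO livers.

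The make-up of the family shifted accordingly. Ces1c held 23.4% ± 1.41 of the summed FPKM in WT chow and 55.7% ± 3.67 in WT MCD livers, and 23.6% ± 1.12 and 57.3% ± 2.03 in KO livers. Ces3a went from 34.8% ± 1.96 to 18.01% ± 1.83 in WT and from 34.8% ± 1.73 to 23.3% ± 3.49 in KO livers. Ces3b went from 8.76% ± 2.38 to 0.714% ± 0.219 in WT and from 6.36% ± 1.23 to 1.18% ± 0.159 in KO livers. On MCD the order was Ces1c, then Ces3a, each apart from the next, followed in both genotypes by Ces1g, Ces2e and Ces1d, with overlapping neighbours. Ces3b, at rank 3 in WT chow livers, was the lowest in WT MCD livers and overlapped Ces2c there. These sums are descriptions and were not tested.

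**Figure D3:**
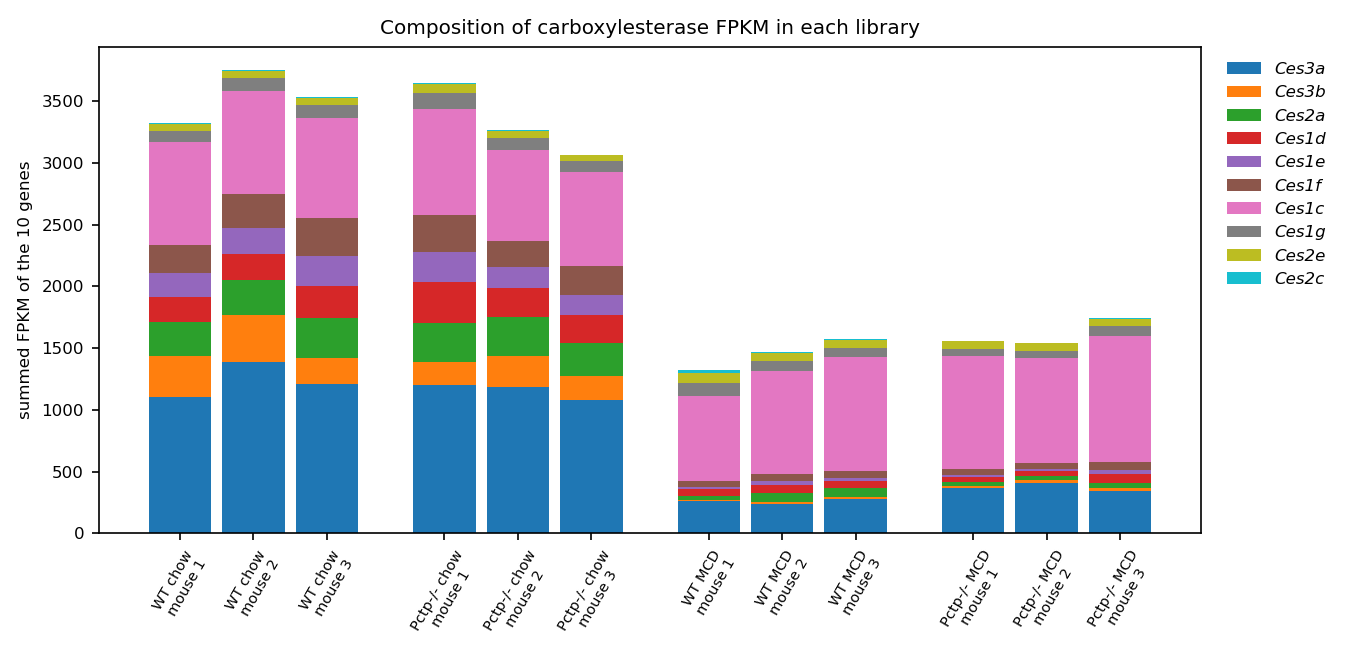
Summed FPKM of the 10 carboxylesterases in each library, stacked by gene, with the 6 genes that fell on MCD at the bottom of each bar. Chow bars reach 3069 to 3753 FPKM and MCD bars 1324 to 1746, while the Ces1c layer lies between 684 and 1017 FPKM in every bar.

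The knockout called no carboxylesterase on chow. No member passed the test, none had an unadjusted p under 0.05 and in none were the genotypes apart, beside 0.136% of all genes called, 6.98% with an unadjusted p under 0.05 and 10.6% with genotypes apart. The largest difference was that of Ces3b, at -0.53 (95% confidence interval -1.11 to 0.059, adjusted p = 0.758, limma). For Ces3a the interval was -0.32 to 0.15, for Ces1c -0.34 to 0.18 and for Ces1d -0.21 to 0.66. The interval of Ces2a, the widest of the 10, was -0.57 to 0.62, so differences of this size remain compatible with these 3 mice a group. Such an interval is not a limit of detection. The difference of Pctp on chow, at -1.07, was not called either (adjusted p = 0.150, limma).

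On MCD no member passed the test for the knockout either, but 4 had an unadjusted p under 0.05, beside 0.818% of all genes called and 16.3% with such a p. Both Ces3 genes were higher in every KO MCD liver than in any WT MCD liver, and Ces2c was lower in every one, while 26.6% of all genes had genotypes apart, 5.5% higher and 21.1% lower. The split of calls over all genes in this comparison turned with the scaling, from 37 higher and 65 lower to 69 and 41 with quantile normalization. The lowest KO value of Ces3a on MCD was 343 FPKM and the highest WT value 280. Its difference was 0.51 (95% confidence interval 0.28 to 0.75), just short of the threshold (adjusted p = 0.0541, limma). It passed with quantile normalization (adjusted p = 0.0104, limma) and with a filter at a mean of 5 FPKM (adjusted p = 0.0348, limma). Without the first WT chow library it also passed (adjusted p = 0.0435, limma). These were 3 of the 22 alternatives with no minimum change, in which its adjusted p-value went up to 0.246 (limma). With median-of-ratios scaling it was 0.101, and without the first WT MCD library 0.115 (limma). For Ces3b the difference was 0.84 (95% confidence interval 0.26 to 1.43, adjusted p = 0.151, limma), and the means were 19.1 ± 3.58 FPKM in KO and 10.6 ± 3.95 in WT. For Ces2c it was -0.97 (-1.52 to -0.42, adjusted p = 0.0990, limma) with means of 6.58 ± 1.17 and 14.5 ± 6.32 FPKM.

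Ces2a was at 34.2 ± 8.63 FPKM in KO and 58.2 ± 23.8 in WT MCD livers, a difference of -0.68 (95% confidence interval -1.27 to -0.086, adjusted p = 0.246, limma). This value turned on the first WT MCD library, which had 30.7 FPKM where the other 2 had 72.0 each. Without it the difference of Ces2a was -1.08 and passed the test (adjusted p = 0.0170, limma). Leaving it out also reduced the difference of Ces3b from 0.84 to 0.53 (adjusted p = 0.416, limma) and that of Ces2c from -0.97 to -0.66 (adjusted p = 0.246, limma). The same library had the highest Ces2c (21.8 FPKM), Ces2e (86.8 FPKM) and Ces1g (106 FPKM) and the lowest Ces3b (6.14 FPKM) and Ces1e (15.5 FPKM) of the 6 MCD livers. It also had the highest summed FPKM of 8 macrophage markers (477, against 216 to 318 in the other MCD livers) and of 8 stellate cell or fibroblast markers (47.6, against 18.1 to 23.8). The part of these cells in its carboxylesterase values was not tested.

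**Figure D4:**
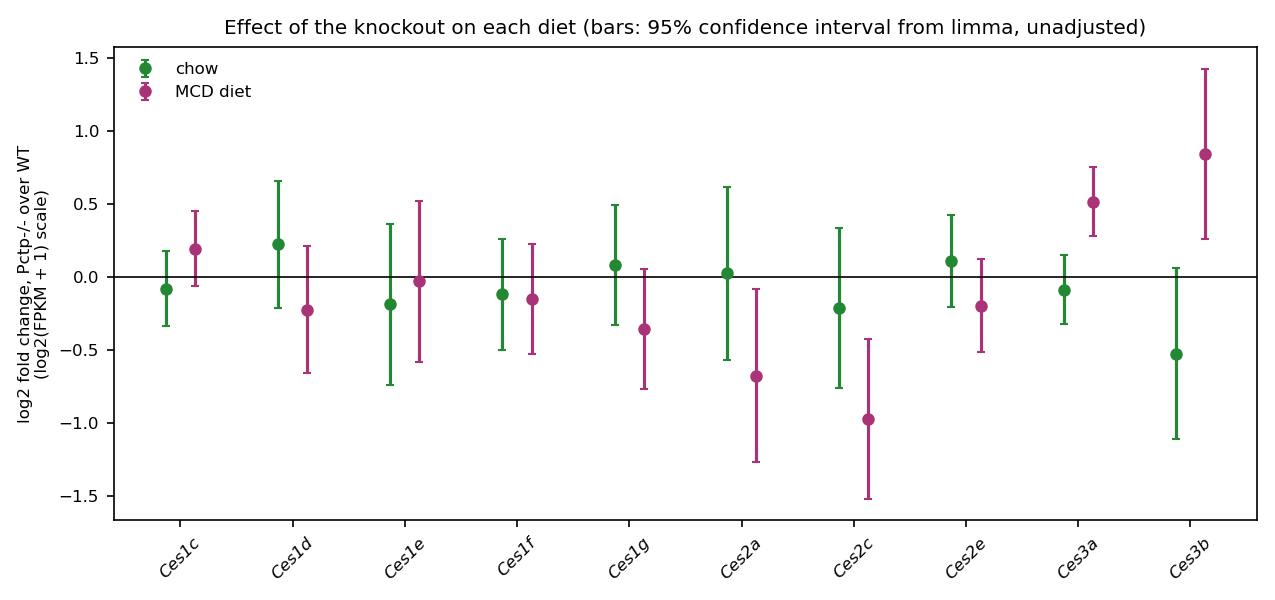
log2 fold change on the log2(FPKM + 1) scale, Pctp-/- over WT, of the 10 carboxylesterases on chow and on the MCD diet, with bars for the unadjusted 95% confidence interval from limma. All 10 intervals include 0 on chow, and those of Ces2a, Ces2c, Ces3a and Ces3b exclude it on MCD.

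Whether the response to the MCD diet differed between genotypes was tested as an interaction. No member passed, against 0.0963% of all genes, and 2 members had an unadjusted p under 0.05, beside 15.1% of all genes. These were Ces3a, whose fall was smaller in KO by 0.60 (95% confidence interval 0.27 to 0.94, adjusted p = 0.132, limma), and Ces3b, whose fall was smaller by 1.37 (0.54 to 2.20, adjusted p = 0.142, limma). The interaction of the other 8 members ranged from -0.76 for Ces2c to 0.27 for Ces1c. The comparisons on MCD and the interaction share libraries and are not independent of each other.

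Likeness of pattern was measured as the root mean square difference of log2(FPKM + 1) after centring each gene over the 12 libraries, against all tested genes. Ces1d and Ces1f were each other's nearest gene of all, at 0.18. The nearest gene outside the members was Rps2-ps13 for both, little further away, at 0.19 from Ces1d and 0.20 from Ces1f. The nearest gene to Ces2a was Oaz1-ps, followed by Ces1e at 0.38, and the nearest to Ces1e was Gas1, with Ces2a in the third place. Ces3b was nearest to Mup3, a major urinary protein, at 0.34, with Ces1e as the nearest member at 0.68. Ces3a was nearest to C8b, a complement component, at 0.13. Ces1c, Ces2c and Ces2e, which had no call or a fragile one, were nearest to Fggy, Maoa and Haus2.

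Other enzymes that act on neutral lipids moved in both directions. Of 22 listed hydrolases and cofactors 19 were tested. On MCD 6 rose and 8 fell in WT, and 5 rose and 7 fell in KO livers. Of all tested genes, 34.5% were called higher and 22.5% lower in WT, and 26.0% and 24.4% in KO. Lpl, the lipase of vessel walls, rose from 3.38 ± 1.19 to 49.3 ± 15.2 FPKM in WT (log2 change 3.52, SE 0.32, adjusted p = 3.4e-06, limma) and by 2.84 in KO. G0s2, an inhibitor of the lipase ATGL, rose by 2.40 in WT and 1.28 in KO. Nceh1, a cholesteryl ester hydrolase, rose by 1.37 in WT and 1.55 in KO, and all 4 of these changes were called. Lipc, the hepatic lipase, fell from 114 ± 6.47 to 38.6 ± 5.36 FPKM in WT (-1.54, SE 0.12, adjusted p = 9.4e-07, limma) and by 1.28 on the log2 scale in KO. Pnpla6, a phospholipase of the endoplasmic reticulum, changed by -1.31 in WT and -0.93 in KO, both called. The list's median was -0.14 in WT and -0.16 in KO, beside 0.11 and 0.038 for all tested genes. Neither the knockout on either diet nor the interaction called any of the 19. Over all genes the knockout called 0.136% on chow and 0.818% on MCD, and the interaction 0.0963%.

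Of 10 genes for endoplasmic reticulum and VLDL partners, 6 rose in WT and 6 rose and 1 fell in KO livers on MCD. The medians were 0.71 and 0.57, beside 0.11 and 0.038 for all tested genes. Of these, 34.5% were called higher and 22.5% lower in WT, and 26.0% and 24.4% in KO. Plin2, a coat protein of lipid droplets, rose from 223 ± 33.6 to 473 ± 76.1 FPKM in WT and from 221 ± 24.5 to 399 ± 85.1 in KO livers. Cidec, a droplet fusion protein, rose by 2.91 in WT and 2.07 in KO, and Sar1b, a GTPase of secretory vesicles, had a called change of -0.33 in KO. No gene of this list was called for the knockout or the interaction.

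Among 16 regulators of xenobiotic and lipid genes in the liver, 2 rose and 8 fell on MCD in WT. In KO livers 2 rose and 7 fell. The medians were -0.41 and -0.57, beside 0.11 and 0.038 for all tested genes. Of these, 34.5% were called higher and 22.5% lower in WT, and 26.0% and 24.4% in KO. Cebpa, a transcription factor of differentiated hepatocytes, fell from 593 ± 159 to 141 ± 20.5 FPKM in WT (-2.04, SE 0.19, adjusted p = 3.7e-06, limma) and from 445 ± 91.7 to 157 ± 15.6 in KO livers (-1.48, SE 0.19, adjusted p = 5.5e-05, limma). Onecut1, another such factor, had a called change of -2.78 in WT, from widely scattered chow livers (24.6 ± 20.4 FPKM) to 1.78 ± 0.626. In KO its change of -1.12 was not called (adjusted p = 0.188, limma). Ahr, the aryl hydrocarbon receptor, rose by 0.57 in WT, and Nfe2l2, a regulator of the oxidative stress response, rose by 0.57 in WT and 0.76 in KO. Nr1h4, the bile acid receptor, rose by 0.35 in KO. Bcl6, a repressor, was the 1 gene of these lists called for the knockout on chow, with 4.55 ± 1.24 FPKM in WT and 19.4 ± 5.37 in KO livers (1.87, SE 0.23, adjusted p = 0.00536, limma). On MCD it fell in KO livers to 3.56 ± 0.751 FPKM (-2.13, SE 0.23, adjusted p = 1.6e-05, limma), and its interaction of -2.16 was called (adjusted p = 0.0399, limma).

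The tissue label was checked against markers. Of 9 hepatocyte markers 8 were matched in the table, and they summed to 49090 to 59325 FPKM on chow. On MCD they summed to 64770 to 73121 FPKM in WT and 79557 to 86506 in KO livers. Every KO MCD liver thus stood above every WT MCD liver, as for Ces3a and Ces3b. These sums were mostly Alb, encoding albumin, which averaged 43899 FPKM in WT and 57218 in KO MCD livers. For the knockout on MCD, the log2 changes of single hepatocyte markers ranged from -0.068 to 0.70. The part of these markers in the differences of Ces3a and Ces3b was not tested. On MCD Alb rose by 0.66 in WT and 1.02 in KO, opposite to the 6 carboxylesterases. Hnf4a, the hepatocyte nuclear receptor, fell from 239 ± 17.8 to 110 ± 4.65 FPKM in WT and from 193 ± 14.9 to 106 ± 10.6 in KO livers. Apoa1, the main apolipoprotein of high density lipoprotein, had called changes of -0.45 and -0.55. In all, 1 hepatocyte marker rose and 4 fell in WT, and 1 rose and 2 fell in KO livers. Beside these and the marker counts below, 34.5% of all tested genes rose and 22.5% fell in WT, and 26.0% and 24.4% in KO. Markers of other cells moved with the diet. The 8 macrophage markers summed to 45.5 to 117 FPKM on chow and 216 to 477 on MCD, with 7 called higher in WT and 4 in KO, Lyz2 by 3.26 and 3.04 and Cd68 by 2.49 and 1.78. The 8 stellate cell or fibroblast markers summed to 9.35 to 22.9 FPKM on chow and 18.1 to 47.6 on MCD, with 3 called higher in WT and 2 in KO, Timp1 by 1.49 and 0.99 and Lrat by 1.41 and 1.03. The 5 cholangiocyte markers summed to 10.6 to 19.5 FPKM on chow and 13.7 to 25.5 on MCD, with Spp1 higher in WT (0.75) and Sox9 lower in KO (-1.17). The 6 endothelial markers summed to 40.7 to 62.8 and 49.0 to 67.7 FPKM, with Lyve1 (0.69) and Clec4g (0.49) higher in WT and none called in KO. The 4 blood markers summed to 252 to 760 FPKM on chow and 207 to 276 on MCD, with Hba-a1 (-1.26 and -1.51) and Hbb-bt (-0.78 and -0.97) lower in both genotypes. No marker was called for the knockout, and the part of these shifts in the carboxylesterase values was not tested.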

How the data were processed

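Liver RNA of 12 mice was sequenced by Novogene, and the authors deposited FPKM values per gene, 1 column per mouse, on build mm10 as the submitters' processing notes state. The aligner, the counting tool and the annotation are not given in the sources used here. A second deposited table holds other values per library, namely read totals and mapping and quality percentages. The depth and the mapping and error rates given above were taken from it. Symbols of 34490 of 35275 identifiers came from GENCODE M21. No pair of libraries held identical values, and the labels number the mice of each group as biological replicates.

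FPKM is not a count, so log2(FPKM + 1) of all 12 libraries was modelled by group in limma 3.58.1 (R 4.3.3), with a pseudocount of 1 and a mean-variance trend, in place of the Wald test that the study names. An adjusted p under 0.05 (Benjamini-Hochberg, two-sided, 12466 genes) with no minimum fold was a call. An exact permutation test of 3 against 3 cannot go below 0.1 and was not used. The members and the lists were chosen with earlier results of these data known. All members and Pctp are named, and from each list the 2 largest called rises and falls per diet contrast with groups that do not overlap. Gusb and the genes of nearest pattern are named besides, except that of Ces1g, which is not reported here. Transcript identity was computed with Biopython 1.88. Alternatives were the pseudocount, the filter, the scaling, the fit's options and libraries, a replicate block, a minimum fold and leaving out each library.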

Additional observations from a re-analysis of the deposited data

How the results depend on the processing

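The 6 falls on MCD stayed past the threshold in both genotypes under every alternative, leaving out each library included, as did that of Ces1g in KO except with a minimum log2 change of 1. The members called on MCD numbered 6 to 8 in WT and 7 in KO when a library was left out. Those called for the knockout numbered 0 on chow and 0 to 1 on MCD, and 0 for the interaction. For the knockout on MCD, 1 member was called (Ces3a) with a filter at a mean of 5 FPKM and 1 (Ces3a) with quantile normalization, and 1 without WT MCD library 1 (Ces2a) or WT chow library 1 (Ces3a).

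Ces2e in WT passed the threshold in 11 of 23 alternatives. It failed with no filter on low values (adjusted p = 0.0755, limma), quantile normalization (0.0866), median-of-ratios scaling (0.235) and no mean-variance trend (0.0518), with a minimum log2 change of 1, and without WT chow library 1 or 2, KO chow library 2, WT MCD library 1 or any KO MCD library. Ces2c in WT passed in 5 of 23, with adjusted p-values from 0.0293 to 0.234 (limma) in those with no minimum change.

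Reversals were of values that had not been called. With quantile normalization Ces1c in WT became 0.27, Ces2a for the knockout on chow -0.028, Ces1e for the knockout on MCD 0.080 and the interaction of Ces1f 0.096. With median-of-ratios scaling the last 2 became 0.074 and 0.063. Leaving out each library in turn gave a lowest and a highest value per gene. On MCD these were -0.13 and 0.087 for Ces1c in WT, and -0.056 and 0.21 for Ces2e in KO. For the knockout on MCD they were -0.27 and 0.19 for Ces1e. The interactions had -0.082 and 0.38 for Ces1e, and -0.22 and 0.12 for Ces1f. For the knockout on chow they were -0.066 and 0.21 for Ces1g, -0.026 and 0.12 for Ces2a, and -0.34 and 0.031 for Ces2c. Ces2e had -0.035 and 0.23 there, and Ces3a -0.17 and 0.00068. The cause was not tested.

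Over all genes, calls numbered 17 for the knockout on chow (4 to 34 over the alternatives), 102 on MCD (19 to 173), 12 for the interaction (0 to 60), and 7110 and 6276 for the diet in WT and KO (1777 to 7702 and 1343 to 6589). The scaling moved the median change of all genes on MCD in WT from 0.11 to 0.011 (quantile) and -0.0013 (median of ratios), and that of the knockout on MCD from -0.093 to -0.0040 and -0.0068. Replicate numbers are shared by groups but number different mice, and deviations of same-numbered libraries correlated between -0.0972 and 0.225. A replicate block left 7, 7, 0, 0 and 0 members called in the 5 contrasts and raised calls over all genes for the knockout on chow to 32 and for the interaction to 59. FPKM holds no counts, so counting error per gene is unknown, and low genes such as Ces2c are the least certain.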
